A study of Mus musculus with 12 samples.

Results

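Chemokines are small secreted or shed proteins that steer leukocytes along gradients. The 9 mouse genes described here encode chemokines that chiefly recruit monocytes and lymphocytes: Cxcl10, Cxcl12, Cxcl14, Cxcl16, Ccl2, Ccl5, Ccl7, Ccl20 and Cx3cl1. They were chosen as a fixed list of symbols and looked up in the gene tables of 2 cell lines, which together hold 17335 genes. Of the 9, 8 had a row in the PSC4 table (16386 genes) and the same 8 had a row in the KPC4 table (15309 genes). Cxcl14, a chemokine made by many epithelia and fibroblasts, had a row in neither table, so no value is given for it. After removal of low counts, 7 of the 9 were tested in PSC4 (not Ccl20) and 7 in KPC4 (not Cxcl12).

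The measurements are bulk RNA-seq counts from 12 cultures, in 4 groups of 3 biological replicates. PSC4 is a mouse pancreatic stellate cell line, the stromal cell of the pancreas, and KPC4 is a mouse pancreatic adenocarcinoma cell line. Gemcitabine is a chemotherapeutic nucleoside analogue. Donor KPC4 cells had 10 µM of it, or vehicle, for 6 h, were washed, and conditioned starvation medium for 14 h, and the resulting supernatants are called Gem-SU and Control-SU. Recipient PSC4 cells stayed in either of them for 24 h. For the other experiment, PSC4 cells spent 6 h in either supernatant and, after a wash, 18 h in fresh starvation medium, which became Gem-PSC-SU or Control-PSC-SU. Recipient KPC4 cells, not themselves given the drug, stayed in it for 24 h. All 4 groups thus received conditioned medium, each recipient is a single line, and cells in unconditioned medium or given the drug directly were not analysed here.

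CXC and CC chemokines are named after the spacing of their first cysteines, and they act through G-protein-coupled receptors. Cxcl10 is an interferon- and NF-kappaB-inducible ligand of Cxcr3 on activated T and NK cells. Cxcl12 is the ligand of Cxcr4 and Ackr3 and is made in large amount by mesenchymal cells, where it retains or positions leukocytes and progenitors. Ccl2 and Ccl7 draw monocytes through Ccr2, Ccl5 draws T cells and monocytes, and Ccl20 acts through Ccr6. Cxcl16 and Cx3cl1 are made as membrane-anchored proteins that can be shed by proteases, and act through Cxcr6 and Cx3cr1.

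The 250 bases before the RefSeq start are printed for 3 genes that stand for the contrasts in the values. Cxcl10 was higher in both lines with the Gem supernatant that each received. Ccl20 was read only at low counts in PSC4, and Cxcl12 fell there. Capitals mark matches on either strand to an NF-kappaB consensus, to the interferon-response core (GAAA, any 2 bases, GAAA) or to the AP-1 motif TGANTCA. Sequences and coordinates are those of RefSeq on GRCm38.p6, written 5′ to 3′ on the strand of the gene, and the table had an entry for 5 of the 9 genes.
Cxcl10 (chr5:92348890-92349139, minus strand): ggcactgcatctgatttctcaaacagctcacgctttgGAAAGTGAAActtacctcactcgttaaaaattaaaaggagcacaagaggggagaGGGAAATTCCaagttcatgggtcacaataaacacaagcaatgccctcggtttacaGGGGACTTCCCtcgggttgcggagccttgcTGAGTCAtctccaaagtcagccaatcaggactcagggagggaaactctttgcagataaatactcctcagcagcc
Ccl20 (chr1:83116516-83116765, plus strand): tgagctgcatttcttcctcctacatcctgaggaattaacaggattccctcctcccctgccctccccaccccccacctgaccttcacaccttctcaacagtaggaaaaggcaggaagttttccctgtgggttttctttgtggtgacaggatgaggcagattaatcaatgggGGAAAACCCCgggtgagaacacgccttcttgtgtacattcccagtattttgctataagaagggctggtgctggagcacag
Cxcl12 (chr6:117168285-117168534, plus strand): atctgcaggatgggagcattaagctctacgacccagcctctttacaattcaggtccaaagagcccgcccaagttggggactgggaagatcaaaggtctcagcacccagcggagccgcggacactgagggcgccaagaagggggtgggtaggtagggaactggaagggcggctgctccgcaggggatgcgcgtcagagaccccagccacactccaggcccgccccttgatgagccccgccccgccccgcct
The Cxcl10 window held 3 NF-kappaB matches, of which 2 overlap in the same run of capitals, 1 interferon-response core and 1 AP-1 match. The Ccl20 window held 1 NF-kappaB match. The windows of Cxcl12 and of Cx3cl1, which rose in PSC4, held no match to any of these motifs. The Cxcl14 window held 1 interferon-response core. Among 32851 promoter windows of 250 bases, 7.25% held the NF-kappaB consensus, 2.98% the interferon-response core and 6.75% the AP-1 motif. A match is a description of the letters and was not tested as a binding site. The printed genes were picked by their values, so they cannot relate a match to a direction of change.

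Total counts lay between 29559414 and 38138356 per library in PSC4 and between 26354328 and 34744150 in KPC4. Levels are given as CPM, the count scaled to a common library size, with library totals adjusted by TMM factors. The sum of 10 stellate markers was 8633 to 10087 CPM of the plain total in PSC4 controls and 2928 to 4624 CPM with Gem-SU, and 8 of the 10 fell and 0 rose (1 rose without Gem-SU replicate 2). The sum of 10 epithelial markers was 6119 to 7588 CPM in KPC4 controls and 5665 to 7597 CPM with Gem-PSC-SU. The stellate sum in KPC4 was 2557 to 3009 CPM in controls and 1814 to 2439 CPM with Gem-PSC-SU, and none of the 5 stellate markers tested there passed. Vim made up most of that sum, at a mean of 2588 CPM in controls and 2053 CPM with Gem-PSC-SU. In KPC4 controls Sparc averaged 155 CPM, Col1a2 0.160 CPM and Pdgfra 0.498 CPM. On the scale common to all libraries Vim was higher in control KPC4 (2630 CPM) than in control PSC4 (1687 CPM). In PSC4 the epithelial sum was 33.3 to 41.2 CPM in controls and 57.9 to 66.6 CPM with Gem-SU, and the defining markers Epcam and Cdh1 had no PSC4 row. Of the 5 epithelial markers tested in PSC4, Krt19 (edgeR, adjusted p = 0.00441) and Sox9 (0.00131) rose, Muc1 fell (0.0164) and the other two did not pass. Of 10 macrophage and leukocyte markers, Adgre1, Cd3e and S100a8 had no row in either table. The leukocyte sum was 18.6 to 27.97 CPM in PSC4 controls and 13.6 to 16.4 CPM with Gem-SU, and in KPC4 it was 63.9 to 78.5 CPM in controls and 29.6 to 55.7 CPM with Gem-PSC-SU. Cd14 made up most of it, at a mean of 17.7 CPM in PSC4 controls and 9.55 CPM with Gem-SU (edgeR, adjusted p = 0.0116). In KPC4 Cd14 averaged 70.1 CPM in controls and 43.5 CPM with Gem-PSC-SU (edgeR, adjusted p = 0.205). Ptprc and Cd68 averaged 0.397 and 0.532 CPM in KPC4 controls. The sum of 8 endothelial markers was 2.35 to 3.75 CPM in PSC4 controls and 4.41 to 6.07 CPM with Gem-SU, and in KPC4 it was 0.774 to 1.72 CPM in controls and 1.82 to 3.54 CPM with Gem-PSC-SU. Of 4 tested in PSC4, Kdr alone passed, from 0.345 ± 0.181 to 2.07 ± 0.388 CPM (SD, n = 3 each; edgeR, adjusted p = 0.00339), and none of 3 passed in KPC4. The part of these marker shifts in the chemokine values was not tested. Mitochondrial transcripts made up 4.07% to 7.28% of counts in PSC4 controls and 2.17% to 3.53% with Gem-SU. In these bulk samples, fewer cells making a transcript and less of it per cell cannot be told apart.

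The PSC4 comparison asked how stellate cells differ between Gem-SU and Control-SU. Of the 7 chemokine genes tested, Cxcl10, Cx3cl1 and Ccl2 rose and Cxcl12 fell, while Cxcl16, Ccl5 and Ccl7 did not pass an adjusted p of 0.05 (edgeR's quasi-likelihood test, Benjamini-Hochberg over all genes tested). Among all 13347 genes, 46.3% passed, 24.3% higher and 22% lower, so 4 of 7 is near the background of this comparison. The median log2 fold change of the 7 was -0.01, against -0.00 over all genes. The largest changes were in opposite directions for the 2 most abundant members. Cxcl10 rose 2.29-fold and Cxcl12 was 9.83-fold lower in the mean.

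**Figure D1:**
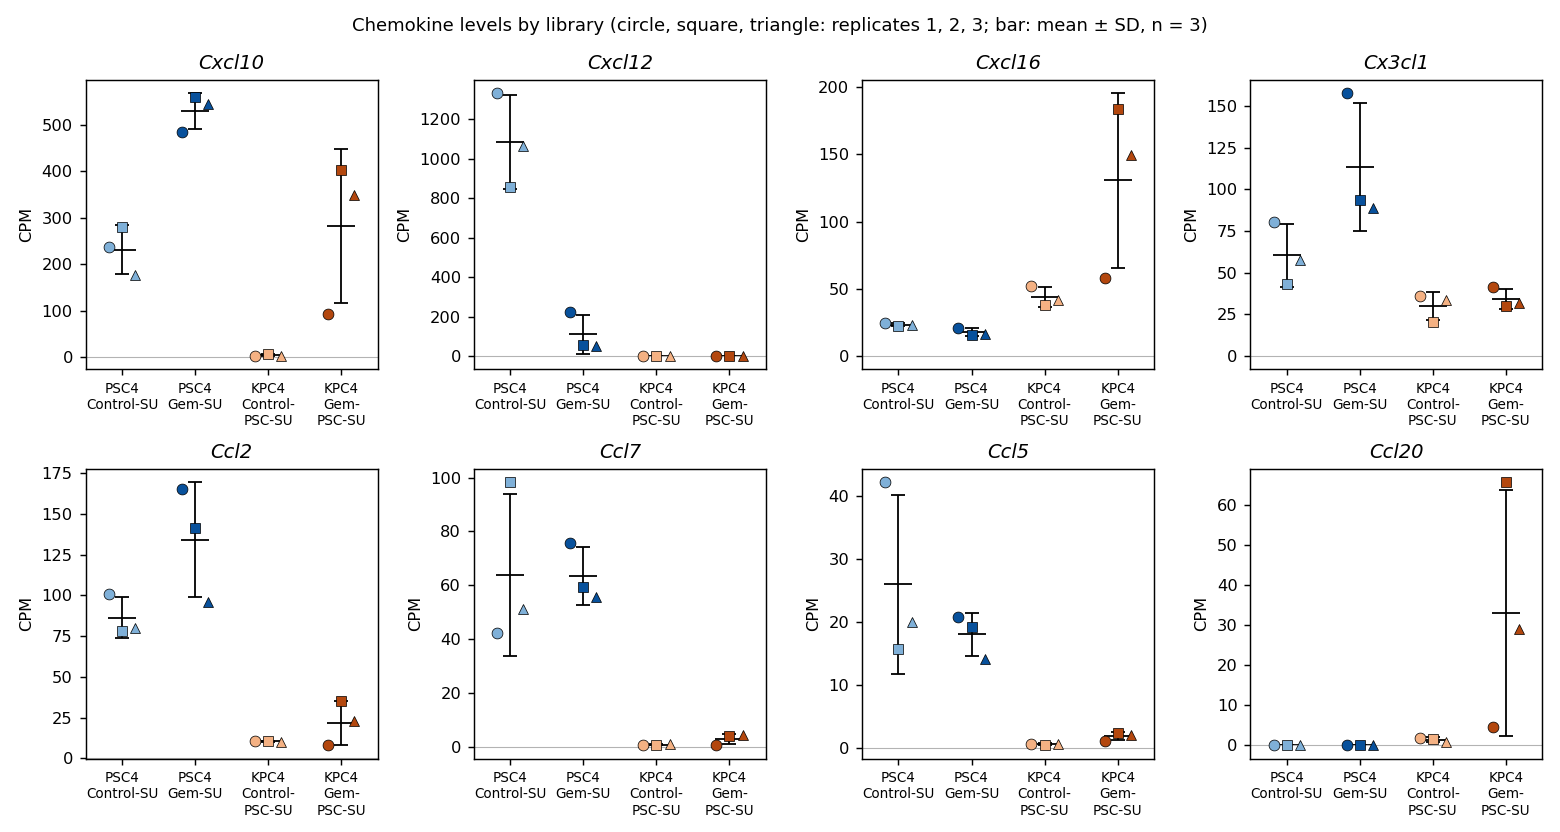
CPM of 8 chemokine genes in every library, with 1 panel per gene, the 4 groups on the horizontal axis and a bar for the mean ± SD (n = 3). Cxcl10 lies higher in the Gem group in each line, Cxcl12 drops from 855 or more to 223 or less in PSC4, and in KPC4 the circle of Gem-PSC-SU replicate 1 lies below the other Gem libraries for 6 of the 7 tested genes.

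Cxcl10 (ENSMUSG00000034855) was at 237, 281 and 176 CPM in PSC4 control replicates 1, 2 and 3 and at 486, 560 and 545 CPM with Gem-SU. The 3 Gem-SU libraries all lay above the 3 controls. The mean rose from 232 ± 52.5 to 530 ± 39.0 CPM (SD, n = 3 each). Its log2 fold change was 1.20 (SE 0.20; edgeR, adjusted p = 0.00167). An exon overlap of 133 of 2252 bases joins Cxcl10 to Art3 on the other strand, and whether the counting used strand is not given in the sources used here. Art3 itself had at most 5 counts in any PSC4 library and no KPC4 row.

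Cxcl12 (ENSMUSG00000061353) was at 1332, 855 and 1061 CPM in the controls and at 223, 58.8 and 49.1 CPM with Gem-SU. The groups were far apart, and Gem-SU replicate 1 lay well above the other Gem-SU libraries. The mean fell from 1083 ± 239 to 110 ± 97.5 CPM (SD, n = 3 each). Its log2 fold change was -3.30 (SE 0.57; edgeR, adjusted p = 0.00206). The stellate marker sum given above was lower in the same libraries. Of the 10 markers, Pdgfra, a receptor of mesenchymal cells, fell most, at a log2 fold change of -3.30 (edgeR, adjusted p = 5.98e-05). Col1a1 was at -0.97 (0.00690). Acta2 (0.78, adjusted p = 0.0538) and Des (0.25, 0.587) had values above 0 and did not pass in edgeR's test. The part of these marker changes in the Cxcl12 value was not tested.

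Cx3cl1 (ENSMUSG00000031778), the membrane-anchored ligand of Cx3cr1, was at 80.4, 43.4 and 57.5 CPM in the controls and at 158, 93.6 and 88.7 CPM with Gem-SU. The groups did not overlap, and replicate 1 was the highest library of each. The mean rose from 60.4 ± 18.7 to 113 ± 38.6 CPM (SD, n = 3 each). Its log2 fold change was 0.91 (SE 0.28; edgeR, adjusted p = 0.0288). The call was lost without Control-SU replicate 2 (adjusted p = 0.0885), Control-SU replicate 3 (0.0993) or Gem-SU replicate 1 (0.0610).

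Ccl2 (ENSMUSG00000035385), the main monocyte attractant of the group, was at 101, 78.4 and 80.1 CPM in the controls and at 165, 142 and 96.1 CPM with Gem-SU. Its groups overlapped, because Gem-SU replicate 3 lay below control replicate 1. The mean rose from 86.4 ± 12.4 to 134 ± 35.2 CPM (SD, n = 3 each). The fitted log2 change was 0.64 (SE 0.21; edgeR, adjusted p = 0.0369). The call was lost without Control-SU replicate 2 (adjusted p = 0.111), Control-SU replicate 3 (0.139), Gem-SU replicate 1 (0.0806) or Gem-SU replicate 2 (0.114), and in a fit over all 12 libraries (0.218).

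The remaining PSC4 members did not pass the test. Cxcl16 (ENSMUSG00000018920) was at 24.9, 22.4 and 23.0 CPM in the controls and at 21.1, 15.6 and 16.3 CPM with Gem-SU. All its Gem-SU libraries lay below the controls, with a log2 fold change of -0.41 ± 0.18 (SE; edgeR, adjusted p = 0.0937), and without Gem-SU replicate 1 it passed (-0.55, adjusted p = 0.0292). Ccl5 (ENSMUSG00000035042) was at 42.2, 15.7 and 20.0 CPM in the controls and at 20.7, 19.2 and 14.1 CPM with Gem-SU. Its groups overlapped, and control replicate 1 alone stood above the rest (edgeR log2 fold change -0.53 ± 0.35 SE, adjusted p = 0.251). Ccl7 (ENSMUSG00000035373) was at 42.2, 98.3 and 51.3 CPM in the controls and at 75.8, 59.4 and 55.5 CPM with Gem-SU. Here every Gem-SU library lay inside the range of the controls (edgeR log2 fold change -0.01 ± 0.30 SE, adjusted p = 0.986). Ccl2 and Ccl7 are neighbours on chromosome 11 in RefSeq's GRCm38.p6 gene order. Ccl20 (ENSMUSG00000026166) had 0 counts in each control library and 5, 1 and 1 counts with Gem-SU, too few for a fold. Groups did not overlap for 4 of the 7 tested members (Cxcl10, Cx3cl1, Cxcl12 and Cxcl16), against 56.4% of all genes.

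The KPC4 comparison asked how tumour cells differ between Gem-PSC-SU and Control-PSC-SU. No chemokine gene passed the adjusted threshold, and neither did any other of the 13236 genes (0%) in edgeR's test, while 17% of all genes and 6 of the 7 tested members had an unadjusted p under 0.05. By DESeq2's test 4 members passed, as did 6.22% of all genes, and in a fit over all 12 libraries 4 did, as did 4.47% of all genes. All 7 fitted log2 fold changes were above 0, with a median of 1.83 against -0.02 over all genes. The highest was that of Cxcl10, at 5.90. With the replicate number as a block 8.85% of all genes passed, 6.07% higher and 2.78% lower, and among the members Cxcl10 alone did.

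**Figure D2:**
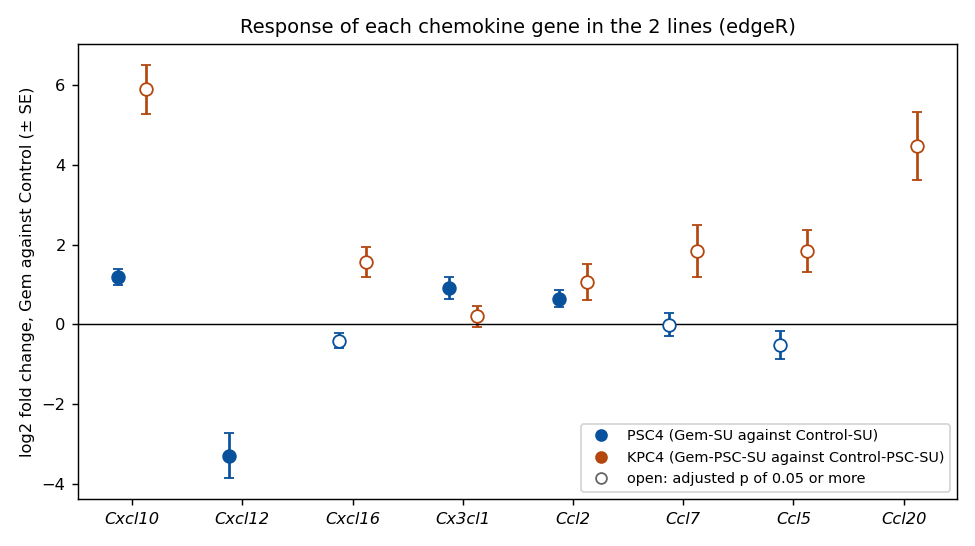
Fitted log2 fold change (± SE) of Gem against Control for each chemokine gene, blue for PSC4 and orange for KPC4, with filled points for an adjusted p under 0.05 in edgeR's test without the block. PSC4 holds 4 filled points, Cxcl12 alone below 0, and the 7 KPC4 points are open and above 0, from 0.20 for Cx3cl1 to 5.90 for Cxcl10.

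Cxcl10 was at 3.11, 7.23 and 3.82 CPM in KPC4 control replicates 1, 2 and 3 and at 93.7, 404 and 349 CPM with Gem-PSC-SU. Every Gem-PSC-SU library exceeded every control by more than 10 times, and Gem-PSC-SU replicate 1 was the lowest of its group. The mean was 4.72 ± 2.20 CPM in controls and 282 ± 165 CPM with Gem-PSC-SU (SD, n = 3 each). Its log2 fold change was 5.90 (SE 0.62; edgeR, adjusted p = 0.0863). With the replicate block the log2 fold change was 5.75 (edgeR, adjusted p = 7.55e-04).

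Ccl20, the Ccr6 ligand of dendritic and Th17 cells, was at 1.99, 1.63 and 0.837 CPM in the controls and at 4.56, 65.6 and 29.1 CPM with Gem-PSC-SU. The groups did not overlap, yet Gem-PSC-SU replicate 1 lay much nearer to the controls than to its own group. The mean was 1.49 ± 0.589 CPM in controls and 33.1 ± 30.7 CPM with Gem-PSC-SU (SD, n = 3 each). On the log2 scale the difference was 4.47 (SE 0.86; edgeR, adjusted p = 0.112).

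Cxcl16, the Cxcr6 ligand, was at 51.9, 38.1 and 41.8 CPM in the controls and at 58.3, 184 and 150 CPM with Gem-PSC-SU. Again the groups did not overlap, and Gem-PSC-SU replicate 1 was only slightly above the highest control. The mean was 43.9 ± 7.16 CPM in controls and 131 ± 65.0 CPM with Gem-PSC-SU (SD, n = 3 each). The fitted change was 1.57 on the log2 scale (SE 0.38; edgeR, adjusted p = 0.124). Cxcl16 shares 552 of its 3021 exon bases with Zmynd15 on the other strand, which had 120 to 515 counts in KPC4 libraries and 40 to 106 in PSC4 libraries.

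Ccl5 was at 0.548, 0.326 and 0.636 CPM in the controls and at 1.07, 2.26 and 2.07 CPM with Gem-PSC-SU. These are low levels, 11 to 19 counts per control library and 30 to 73 with Gem-PSC-SU, but the groups did not overlap (edgeR log2 fold change 1.83 ± 0.53 SE, adjusted p = 0.162). Ccl7 was at 0.893, 0.563 and 1.04 CPM in the controls and at 0.748, 3.91 and 4.30 CPM with Gem-PSC-SU. Ccl2 was at 10.4, 10.7 and 10.3 CPM in the controls and at 7.87, 34.9 and 22.6 CPM with Gem-PSC-SU. For these neighbouring genes Gem-PSC-SU replicate 1 was within or below the control range while the other Gem-PSC-SU libraries were above it, and the log2 fold changes were 1.84 ± 0.65 SE for Ccl7 (edgeR, adjusted p = 0.218) and 1.06 ± 0.45 SE for Ccl2 (0.277). Cx3cl1 was at 36.0, 20.2 and 33.7 CPM in the controls and at 41.3, 30.0 and 31.7 CPM with Gem-PSC-SU. Its groups overlapped, and its log2 fold change of 0.20 ± 0.26 SE was the smallest of the tested members (edgeR, adjusted p = 0.719). Cxcl12 had 1, 1 and 0 counts in the controls and 4, 4 and 1 counts with Gem-PSC-SU, too few for a fold.

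Groups did not overlap for 4 of the 7 tested KPC4 members (Cxcl10, Ccl20, Cxcl16 and Ccl5), all higher with Gem-PSC-SU, where 11.8% of all genes were higher without overlap. Gem-PSC-SU replicate 1 was the library of its group nearest to the controls for 6 of the 7, Cx3cl1 being the exception, against 47.9% of all genes. Gem-PSC-SU replicate 2 was the highest of the 6 libraries for 5 of the 7, against 30% of all genes. Without Gem-PSC-SU replicate 1 the share of all genes that passed rose from 0% to 8.3%, and 5 members passed: Cxcl10 (log2 fold change 6.31, edgeR, adjusted p = 3.04e-04), Ccl20 (4.98, 0.00162), Cxcl16 (1.92, 0.00208), Ccl2 (1.46, 0.0146) and Ccl7 (2.30, 0.0233). Without Control-PSC-SU replicate 2, Cxcl10 passed, as did 1.29% of all genes.

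**Figure D3:**
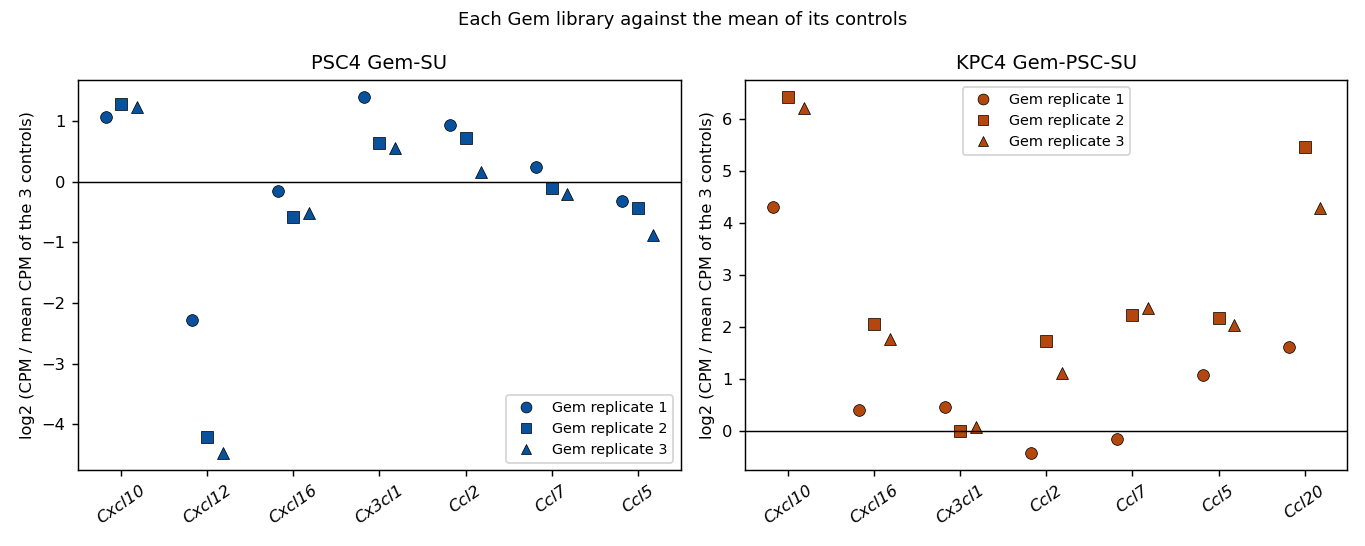
Log2 ratio of each Gem library to the mean CPM of its 3 controls, for the tested chemokine genes in PSC4 (left) and KPC4 (right), with a symbol per replicate. In PSC4 the Cxcl12 ratios run from -4.46 to -2.28 and replicate 1 is the mildest, and in KPC4 replicate 1 lies lowest for 6 of 7 genes, with Cxcl10 at 4.31 in that library against 6.42 and 6.21 in the others.

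Dividing CPM by the merged exon length in kb allows levels of different genes to be set side by side. The length joins all annotated exons of a gene, 8176 bases for Cxcl12 and 2252 for Cxcl10, whichever transcripts the cells make. The order of the genes and the ratios between them depend on this choice. In PSC4 controls the levels per kb were highest for Cxcl12 (132) and Cxcl10 (103), then Ccl7 (79.8) and Ccl2 (75.9), with Ccl5 at 27.0, Cx3cl1 at 15.4 and Cxcl16 at 7.76. With Gem-SU the order became Cxcl10 (235), Ccl2 (118), Ccl7 (79.4), Cx3cl1 (28.8), Ccl5 (18.7), Cxcl12 (13.5) and Cxcl16 (5.84). The ratio of Cxcl12 to Cxcl10 per kb was 1.55, 0.839 and 1.66 in the PSC4 controls and 0.126, 0.0290 and 0.0248 with Gem-SU. This ratio was chosen after its values were seen, and its groups were well apart. In KPC4 controls Cxcl16 (14.5), Ccl2 (9.20) and Cx3cl1 (7.62) led, and Cxcl10 (2.10), Ccl20 (1.05), Ccl7 (1.04) and Ccl5 (0.524) were low. With Gem-PSC-SU, Cxcl10 (125) was the highest, followed by Cxcl16 (43.3), Ccl20 (23.3), Ccl2 (19.2), Cx3cl1 (8.74), Ccl7 (3.72) and Ccl5 (1.88).

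**Figure D4:**
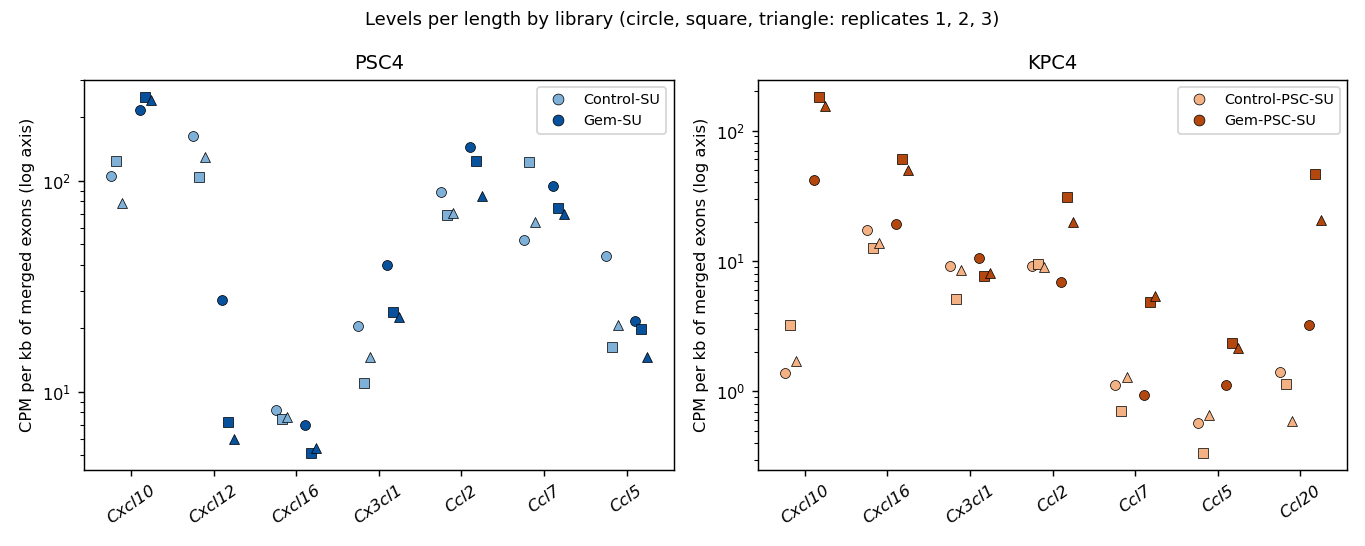
CPM per kb of merged exons on a log axis for the tested chemokine genes in PSC4 (left) and KPC4 (right), light symbols for controls and dark symbols for Gem libraries. Cxcl10 has the highest mean of the genes shown in both Gem groups, 235 in PSC4 and 125 in KPC4, and Cxcl12 moves from a mean of 132 to 13.5 in PSC4.

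Between the control groups, all 6 members with more than 5 counts in a library of each line differed in the fit over all 12 libraries, 5 higher in PSC4 and 1 higher in KPC4, where 42.9% of all genes differed, 22.3% higher in PSC4 and 20.6% lower. The cell line, the medium and the experiment cannot be told apart in this contrast. On the scale common to all 12 libraries, Cxcl10 averaged 234 ± 51.5 CPM in control PSC4 and 4.81 ± 2.29 CPM in control KPC4 (SD, n = 3 each), a log2 difference of 5.60. The log2 difference was 6.25 for Ccl7, 5.68 for Ccl5, 3.04 for Ccl2 and 1.01 for Cx3cl1 (edgeR, adjusted p = 0.0136). For Cxcl12, 105696 pooled counts in control PSC4 against 2 in control KPC4 gave a ratio of 53252 per library total (exact 95% interval 14741 to 439724, counting error only). Cxcl16 was lower in control PSC4 by 0.91 on the log2 scale (edgeR, adjusted p = 0.0284). The Cxcl16 call was lost without any single control library other than Control-PSC-SU replicate 2, with an adjusted p of 0.0515 to 0.0761, and the Cx3cl1 call was lost without Control-SU replicate 1 (0.0723) or Control-PSC-SU replicate 2 (0.0577). Ccl20 had 149 pooled counts in control KPC4 and 0 in control PSC4, at least 16.1-fold higher in KPC4 over a floor of 3 counts per library. With the replicate block, 52.1% of all genes differed, and the 6 members read in both lines did. This block used the replicate numbers of both lines, although those of PSC4 were not taken as pairs.

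Across the 4 groups, the order of Cxcl10 levels was PSC4 with Gem-SU (519 CPM), KPC4 with Gem-PSC-SU (286), control PSC4 (234) and control KPC4 (4.81), on the scale common to all libraries. The libraries of KPC4 with Gem-PSC-SU overlapped those of control PSC4, and the other neighbours in that order did not overlap. Cxcl12 ran from control PSC4 (1095 CPM) to PSC4 with Gem-SU (108), with KPC4 at 4 counts or fewer per library. Cxcl16 had the reverse layout, from KPC4 with Gem-PSC-SU (133 CPM) to control KPC4 (44.7), control PSC4 (23.7) and PSC4 with Gem-SU (17.3), with no overlap between neighbours. Ccl2, Ccl5 and Ccl7 were higher in each PSC4 group than in either KPC4 group, and neither the PSC4 groups of these genes nor the KPC4 groups of Ccl2 and Ccl7 were separated from each other. Cx3cl1 was also higher in both PSC4 groups, and its KPC4 groups overlapped.

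The response itself differed between the lines for 3 of the 6 members with more than 5 counts in a library of each line, Cxcl10, Cxcl16 and Ccl5, where 9.85% of all genes did, 4.75% with the larger and 5.1% with the smaller value in PSC4. With the replicate block the same 3 of these 6 passed, against 21.9% of all genes. That block also covers PSC4, where the numbers were not taken as pairs. The Cxcl10 fold was smaller in PSC4 by 4.74 on the log2 scale (SE 0.63; edgeR interaction term, adjusted p = 9.58e-04). This compares folds over unlike control levels. On the common scale the Cxcl10 mean went from 234 to 519 CPM in PSC4 and from 4.81 to 286 CPM in KPC4. For Cxcl16 the difference, PSC4 minus KPC4, was -2.03 (SE 0.44, edgeR, adjusted p = 0.0131), and for Ccl5 it was -2.42 (SE 0.57, 0.0199). Ccl7 had a difference of -1.89 (edgeR, adjusted p = 0.0978), which passed by DESeq2's test (0.0331) and without Gem-PSC-SU replicate 1 (edgeR, 0.00858). Ccl2 had a difference of -0.46 (0.620) and Cx3cl1 of 0.65 (0.347). No difference is given for Cxcl12 and Ccl20, since each had at most 5 counts per library in the KPC4 or the PSC4 line. Cell line and step of the transfer cannot be told apart.

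Receptors were described from a list of 13 that bind these ligands. Of these, 6 had a row in PSC4 and 5 in KPC4, while Cxcr3, Cxcr4, Ccr2, Ccr3, Ccr6, Ackr1 and Ackr2 had no row in either table. Ackr3, the atypical receptor that scavenges Cxcl12, had 353 to 503 counts in PSC4 controls and 139 to 163 with Gem-SU. It fell by 1.53 on the log2 scale (edgeR, adjusted p = 0.00200) and was the only one of 3 tested to pass. In KPC4 its log2 fold change was -0.24 (edgeR, adjusted p = 0.632), and the difference between the lines was -1.34 (0.0341). Cxcr6, the receptor of Cxcl16, had 0 to 9 counts in PSC4 controls and 18 to 29 with Gem-SU, and did not pass (edgeR, adjusted p = 0.0658). With the replicate block its adjusted p was 0.0299 (edgeR), where 54.4% of all genes passed. Replicate numbers were not taken as pairs in PSC4. Cx3cr1 had 0 to 1 counts in PSC4 controls and 2 to 16 with Gem-SU, and 3 to 5 against 8 to 28 in KPC4. Ackr4 stayed at or under 29 counts and Ccr1 at or under 2 in every library with a row.

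Of 27 further chemokine genes, 9 were tested in PSC4, and 2 rose and 5 fell, where 24.3% of all genes rose and 22% fell, with a median log2 fold change of -1.32 against -0.00 over all genes. Cxcl5, a neutrophil attractant, fell from 129 ± 15.3 to 5.74 ± 4.30 CPM (SD, n = 3 each; edgeR log2 fold change -4.48, adjusted p = 2.85e-04). Ppbp fell from 7.86 ± 0.450 to 1.37 ± 0.853 CPM, and Ccl9, a monocyte and dendritic cell attractant, fell from 10.2 ± 3.23 to 4.09 ± 0.926 CPM. Ccl4, a monocyte and T cell attractant, had 0 to 2 counts in the controls and 40 to 53 with Gem-SU (edgeR, adjusted p = 7.70e-04). The remaining calls, named after their values were seen, were Cxcl11, a Cxcr3 ligand like Cxcl10, which rose by 2.85 on the log2 scale (edgeR, adjusted p = 0.00915), and Ccl8 and Ccl28, with log2 fold changes of -1.50 and -1.88. The 5 decreases became 3 without Control-SU replicate 1, Gem-SU replicate 2 or Gem-SU replicate 3, and the 2 increases became 1 without Gem-SU replicate 2. In KPC4 all 9 tested had a log2 fold change above 0, with a median of 1.53 against -0.02 over all genes, and none passed. With the replicate block 2 passed in KPC4: Cxcl2, at 0.292 ± 0.133 CPM in controls and 28.4 ± 21.0 CPM with Gem-PSC-SU (edgeR, adjusted p = 0.00139), and Cxcl3, at 0.471 ± 0.147 and 24.6 ± 17.1 CPM (0.00518), both neutrophil attractants. Without the block, 4 passed in KPC4 when Gem-PSC-SU replicate 1 was left out (8.3% of all genes) and 3 when Control-PSC-SU replicate 2 was (1.29% of all genes).

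Proteases shed the membrane-anchored chemokines or trim the secreted ones. The list of 10 also holds Rhbdf1 and Rhbdf2, which are not active proteases. Of the 10, 7 were tested in PSC4, and 1 (Rhbdf2) rose and 5 fell, where 24.3% of all genes rose and 22% fell. Their median log2 fold change was -0.80, against -0.00 over all genes. Adam10, a sheddase of Cx3cl1 and Cxcl16, fell from 309 ± 21.9 to 177 ± 11.8 CPM (SD, n = 3 each; edgeR, adjusted p = 0.00232). Mmp14 fell from 339 ± 93.9 to 125 ± 42.4 CPM (edgeR, adjusted p = 0.00364), and Mmp2, which can cleave Ccl7 and Cxcl12, fell from 272 ± 39.9 to 150 ± 59.1 CPM (0.0282). Rhbdf2, which helps Adam17 mature, rose from 25.7 ± 3.60 to 57.0 ± 8.32 CPM (edgeR, adjusted p = 0.00118). Adam17 and Mmp9, named after their values were seen, fell by 0.42 and 1.35 on the log2 scale. Leaving out Control-SU replicate 1, Gem-SU replicate 2 or Gem-SU replicate 3 lowered the 5 decreases to 2. In KPC4 none of 6 tested passed, with or without the replicate block.

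NF-kappaB, interferon regulatory factors and STATs are the transcription factors through which many of these chemokines are induced. Of 19 such genes and their feedback inhibitors, 7 rose and 4 fell in PSC4, where 46.3% of all genes passed, with a median log2 fold change of 0.27 against -0.00 over all genes. Tnfaip3, an inhibitor that NF-kappaB itself induces, rose from 19.2 ± 2.12 to 94.9 ± 7.28 CPM (SD, n = 3 each; edgeR, adjusted p = 4.04e-05). Nfkbia, which holds NF-kappaB in the cytoplasm and is induced by it, rose from 50.4 ± 5.58 to 202 ± 15.1 CPM (edgeR, adjusted p = 5.99e-05). Stat3, the transcription factor of Il6 signalling, fell from 251 ± 10.0 to 107 ± 6.29 CPM (edgeR, adjusted p = 2.81e-04), and its feedback inhibitor Socs3 fell from 105 ± 14.2 to 34.9 ± 9.44 CPM (6.32e-04). The other calls, named after their values were seen, were Rel, Rela, Relb, Nfkb2 and Nfkbie, which rose by 0.94 to 1.32 on the log2 scale, and Nfkbiz and Bcl3, with log2 fold changes of -0.92 and -0.94. In KPC4 all 19 had a log2 fold change above 0, against 48.1% of all genes, with a median of 0.85, and none passed. With the replicate block 2 of these passed in KPC4: Nfkbia, at 25.8 ± 4.05 CPM in controls and 67.7 ± 22.6 CPM with Gem-PSC-SU (edgeR, adjusted p = 0.0292), and Stat2, at 128 ± 9.99 and 230 ± 87.4 CPM (0.0458). Without Gem-PSC-SU replicate 1, 11 of the 19 passed in KPC4, where 8.3% of all genes did.

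**Figure D5:**
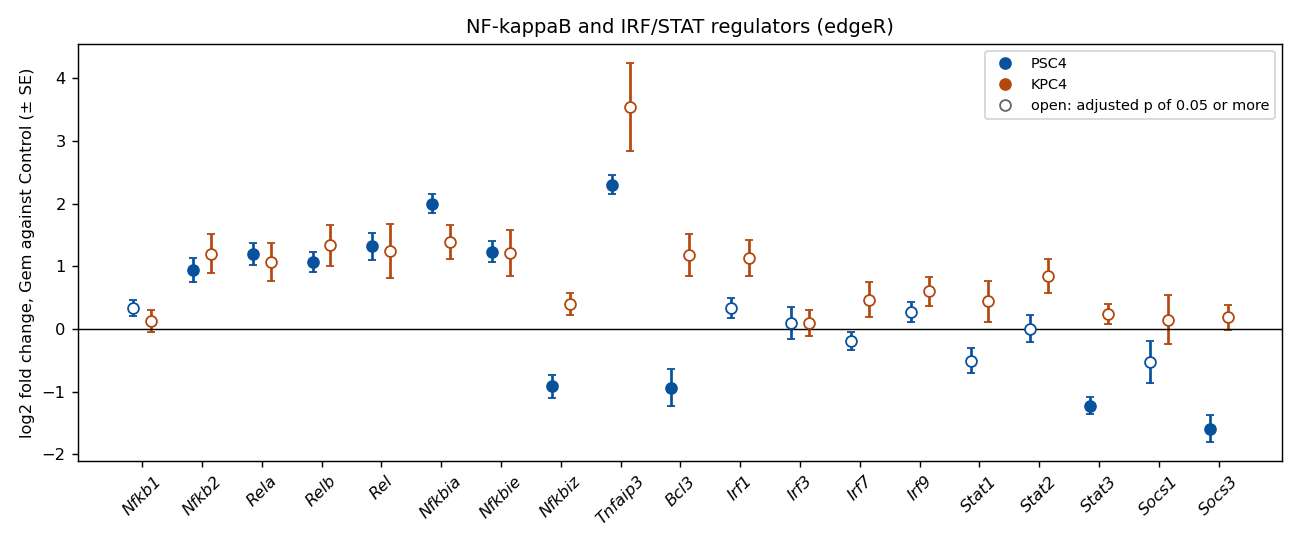
Fitted log2 fold change (± SE) of Gem against Control for 19 NF-kappaB, IRF and STAT genes, blue for PSC4 and orange for KPC4, filled where the adjusted p is under 0.05 in edgeR's test without the block. The NF-kappaB genes Nfkb2, Rela, Relb, Rel, Nfkbia, Nfkbie and Tnfaip3 are filled above 0 in PSC4, Nfkbiz, Bcl3, Stat3 and Socs3 are filled below 0, and the KPC4 points are open and above 0.

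Cytokines and innate sensors can induce these chemokines. Of 20 listed, 16 were tested in PSC4, and 3 rose and 6 fell, near the 46.3% of all genes that passed in either direction. Ifnb1, the type I interferon, had 2 to 19 counts in the controls and 278 to 461 with Gem-SU, 0.335 ± 0.249 against 10.4 ± 3.12 CPM (SD, n = 3 each; edgeR, adjusted p = 3.47e-04). Il6 had 3 to 9 counts in the controls and 95 to 117 with Gem-SU (edgeR, adjusted p = 4.82e-04). Cgas, the sensor of cytosolic DNA, rose from 39.2 ± 8.17 to 103 ± 7.14 CPM (edgeR, adjusted p = 4.79e-04), and Tlr4, the receptor of bacterial lipopolysaccharide, fell from 73.3 ± 16.0 to 26.6 ± 4.03 CPM (7.87e-04). The other calls, named after their values were seen, all fell. They were Tlr2, Il1r1, Sting1, Ifnar2 and Tnfrsf1a, with log2 fold changes between -1.01 and -0.73. Sting1, through which Cgas acts, fell from 76.6 ± 2.75 to 39.6 ± 9.19 CPM (edgeR, adjusted p = 0.00321). Leaving out Gem-SU replicate 1 raised the 3 increases to 5. In KPC4 none of 16 tested passed, and 2 did with the replicate block: Tnf, with 0 to 5 counts in controls and 9 to 257 with Gem-PSC-SU (edgeR, adjusted p = 0.0246), and Cgas (log2 fold change 1.08, 0.0252). Without Gem-PSC-SU replicate 1, and with no block, 1 passed, against 8.3% of all genes. Ifnb1 had 0 counts in every KPC4 control and 0 to 17 with Gem-PSC-SU, and Il6 had 0 and 1 to 54.

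The genes most like a member were taken by Pearson's r of log2 CPM over the 6 libraries of a line, which share their groups and replicate numbers, as a description only. In PSC4, Cxcl10 was most like Ddx42 (r = 0.996), Tubgcp2 (0.995) and Brix1 (0.994), and Cxcl12 was most like Otub1 (0.999), Mettl9 (0.999) and the collagen gene Col3a1 (0.999). Cx3cl1 was most like Dnph1 (0.999), Psmd13 (0.998) and Tcf19 (0.997), and Ccl2 was most like Ankrd13b (0.995), Slc25a38 (0.990) and Ivd (0.988). In KPC4, Cxcl10 was most like the stress-induced factor Atf3 (0.997), Fubp1 (0.996) and Cxcl2 (0.993). Ccl20 was most like Upf3b (0.999) and Sema4f (0.997), Cxcl16 was most like Terf2 (0.997), Edc3 (0.996) and Sdc4 (0.995), and Ccl5 was most like Pias4 (0.997), Txnip (0.994) and Cxcl11 (0.993).

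In the authors' deposited table for PSC4, Cxcl10 (log2 fold change 1.17), Cxcl12 (-3.33) and Cx3cl1 (0.85) had an adjusted p under 0.05. Ccl2 did not in the authors' deposited table (0.64, adjusted p = 0.0910). For KPC4, the authors' deposited table called Cxcl10 (5.90), Ccl20 (4.41) and Cxcl16 (1.78).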

How the data were processed

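RNA-seq counts of 12 libraries were used, grouped by their titles. The authors deposited a table of raw whole-number counts per gene for each line, with FastQC, Trim Galore 0.6.10, cutadapt 5.2, Salmon, R 4.5.1 and DESeq2 named, on GRCm39, per the submitters' processing notes. The authors also deposited, per line, log2 fold changes with p-values and adjusted p-values, used only as the authors' values. The annotation and the use of strand are not given in the sources used here. Per the file values, the smallest row total is 0 in the PSC4 table and 11 in the KPC4 table, so a gene without a row may have been removed.

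GENCODE M21 gave symbols for 99.7% of the identifiers of each table (16329 of 16386 in PSC4, 15265 of 15309 in KPC4). It lists Sting1 and Rigi under older symbols, and it also gave merged exon lengths. Each line was fitted in edgeR 4.0.16 (R 4.3.3) with filterByExpr, TMM factors, a robust quasi-likelihood test and Benjamini-Hochberg adjustment at 0.05 over all genes tested. Contrasts between lines came from a fit of all 12 libraries. CPM uses TMM factors within a line unless stated. Log2 CPM for likeness used a prior count of 2. A floor of 3 counts per library was used for bounds, which cover counting error only. At these depths counting error is small beside the replicate spread except for genes with few counts. The labels call the samples biological replicates without saying what separates them, so p-values measure the spread between these samples.

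Members and lists were chosen with earlier results of these data known. Named genes were all members, up to 4 called genes with the smallest p per list and line, detected receptors, and the 3 genes most like each of up to 4 members with a mean of at least 50 counts. Deviations of same-numbered libraries correlated at 0.351, 0.436 and 0.211 in KPC4, so the numbers were taken to pair them on the values alone. No label states this pairing. It was judged on the same counts that the block then tests, so p-values with the block may be too small. Alternatives were DESeq2 1.42.0, its size factors, other filters, the replicate block, a joint fit of both lines, no robust estimation and leaving out each library. DESeq2 with the block was chosen after seeing the data, as were list counts without each library. Protein sequences were not analysed here, and a few genes are not reported here.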

Additional observations from a re-analysis of the deposited data

Results flagged for a closer look

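For 3 chemokine genes the response differed between PSC4 given Gem-SU and KPC4 given Gem-PSC-SU. The test was of the difference itself, the interaction term in a fit of all 12 libraries. Cell line and step of the transfer cannot be told apart in it. The difference, PSC4 minus KPC4 on the log2 scale, was -4.74 for Cxcl10, -2.03 for Cxcl16 and -2.42 for Ccl5. Each of these kept its sign and its call in all 18 alternatives run for it. They compare folds, and control Cxcl10 averaged 234 CPM in PSC4 and 4.81 CPM in KPC4 on the common scale. With Gem-SU in PSC4 and Gem-PSC-SU in KPC4, Cxcl10 averaged 519 and 286 CPM. Cxcl10 was higher in 3 of 3 Gem libraries of each line, each against the mean of its controls. By the same measure Cxcl16 was lower in 3 of 3 PSC4 libraries and higher in 3 of 3 KPC4 libraries. Neither Cxcl16 change passed within its line (edgeR, adjusted p = 0.0937 in PSC4 and 0.124 in KPC4), nor did that of Cxcl10 in KPC4 (0.0863). Ccl5 was higher than the control mean in 3 of 3 KPC4 libraries. Its change did not pass the test in KPC4 (edgeR, adjusted p = 0.162) or in PSC4. Its PSC4 log2 fold change of -0.53 became 0.0113 without Control-SU replicate 1.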

How the results depend on the processing

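The PSC4 calls of Cxcl10 and Cxcl12 held in all 14 alternatives run for each, with Cxcl12 between -4.32 and -2.94 on the log2 scale. The number of PSC4 members called, 4, fell to 2 without Control-SU replicate 2 or 3, and ran from 2 to 4 over the libraries left out. The number called in KPC4, 0, was 4 by DESeq2 (823 genes in all), 1 with the replicate block (1171), 4 in the fit over all 12 libraries (610) and 4 by DESeq2 with the block (2184). It ran from 0 to 5 over the libraries left out, and the genes called in all from 0 to 1129. The number of members whose response differed between lines, 3, was 5 by DESeq2, 4 with the replicate block and 3 to 4 over the libraries left out; the DESeq2 and block counts include Cxcl12, at 4 counts or fewer per KPC4 library. The number that differed between control lines, 8 with Cxcl12 and Ccl20 included, was 7 with the block and 6 to 8 over the libraries left out. Small log2 fold changes reversed. Ccl7 in PSC4 became 0.0015 with no filter, 0.0015 with at least 10 counts in every library, 0.0780 with the replicate block, 0.0712 by DESeq2 with the block, and ran from -0.23 to 0.42 over the libraries left out. Over the libraries left out, Ccl5 in PSC4 ran from -0.82 to 0.0113, Cx3cl1 in KPC4 from -0.0041 to 0.35, and the Ccl2 difference between lines from -0.88 to 0.0311. For all of these the cause was not tested. In PSC4 the deviations of same-numbered libraries correlated at 0.428, -0.0548 and 0.102, so the numbers were not taken as pairs there, and the share of all genes called with the block was 54.4%. Depth limits Cxcl12 in KPC4 and Ccl20 in PSC4, at 5 counts or fewer per library.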
